A study of Bos taurus with 20 samples.

Results

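Calpains and the lysosomal cathepsins are the proteases held to break down muscle fibre proteins while beef ages. Calpastatin is an inhibitor of calpains. The genes described here are CAPN1, CAPN2, CAPN3, CAPNS1, CAST, CTSB, CTSD and CTSL. They were listed by name, and a probe was taken as theirs where its deposited gene name, or the symbol in its description, was one of the 8 symbols or an older or newer symbol of the same gene. The rule found 9 of the 21475 gene probes on the array, and each probe was printed as 2 spots. Every gene had 1 probe except CTSL, which had 2. A further 2 probes whose descriptions name a calpain only in words, as similar to it, were not counted. The 8 genes are among 14930 named genes on the array.

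The study measured RNA in neck muscle of 10 cows taken at the slaughterhouse. The 5 treated cows (animals DE27, DE29, DE30, DE31 and DE32) had been given 0.4 mg of dexamethasone per day by mouth over 31 days together with 6 weekly intramuscular doses of 5 mg of estradiol, and the 5 control cows (K3, K6, K8, K9 and K10) had not. Dexamethasone is a synthetic glucocorticoid and estradiol an estrogen. Muscle of each cow was kept under vacuum at 4 °C and sampled at day 0 and again at day 14 of storage, so that 4 groups of 5 arrays resulted and each animal gave 1 array a day. Breed and age were not among the labels used here, and all 10 cows shared the same storage conditions.

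The conventional calpains are cytosolic cysteine proteases that need calcium. Calpain 1 and calpain 2 each pair a large catalytic subunit, encoded by CAPN1 or CAPN2, with the same small regulatory subunit, encoded by CAPNS1. Calpastatin, encoded by CAST, inhibits both. Calpain 3, encoded by CAPN3, is a calpain of skeletal muscle that binds the giant sarcomere protein titin and is not inhibited by calpastatin. Cathepsins B and L are cysteine proteases and cathepsin D an aspartic protease of the lysosome. The arrays measured RNA, not protein or enzyme activity.

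Values are log2 signals of 1-colour Agilent arrays, each array centred on its own 75th percentile. Probes entered the tests when 5 or more of the 20 arrays read them well above background, which left 15431 probes, and 8 of the 9 protease and inhibitor probes were above background on all 20 arrays. Differences are log2 fold changes ± standard error from limma, with Benjamini-Hochberg adjustment over all tested probes and a threshold of 0.05. Arrays of day 14 were dimmer: the log2 75th percentile of the signal fell by 1.03 on average and was lower in each of the 10 animals (two-sided exact permutation test, p = 0.00195, and 0.0293 when adjusted over 30 such tests). Centring on the median in place of the 75th percentile moved the median storage change of all tested probes from 0.10 to -0.21, and normexp background correction moved it to 0.48. A storage change of that size or less therefore has no settled direction, and changes are also given relative to the median probe. All 10 measured muscle fibre markers of 12 listed (such as ACTA1, CKM and TTN) were above the test's background limit, and their summed normalized signal lay between 19.91 and 21.01 on the log2 scale over all arrays.

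CAPN3 RNA was lower after storage in every animal. In control muscle at day 0 its normalized log2 signal was 9.83 in K3, 10.13 in K6, 9.41 in K8, 9.91 in K9 and 10.14 in K10. At day 14 the same animals gave 8.45, 7.58, 8.22, 7.39 and 8.59. No control day 14 array reached the lowest day 0 array. In treated muscle the day 0 values were 9.94 in DE27, 8.88 in DE29, 10.02 in DE30, 9.42 in DE31 and 9.45 in DE32, and the day 14 values were 9.44, 6.92, 8.91, 7.90 and 7.43. Here the days overlapped, because DE27 stayed high at day 14 and DE29 was low at day 0, yet within each animal the value fell.

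CAPN3 fell by 1.84 ± 0.26 on the log2 scale in control animals, a 3.58-fold difference (limma adjusted p = 0.000822). In treated animals it fell by 1.42 ± 0.45, or 2.68-fold (adjusted p = 0.0326). Over all animals it fell by 1.63 ± 0.27, or 3.10-fold (adjusted p = 4.57e-05), and the within-animal changes ran from -2.55 in K6 to -0.51 in DE27. Relative to the median probe the change over all animals was -1.73, and 0.947% of the tested probes had a lower value. The direction held under all 5 scalings of the arrays, between -1.94 with median centring and -1.27 with normexp. In treated animals the adjusted p was between 0.0558 and 0.118 without DE29, DE30, DE31 or DE32 in turn.

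**Figure D1:**
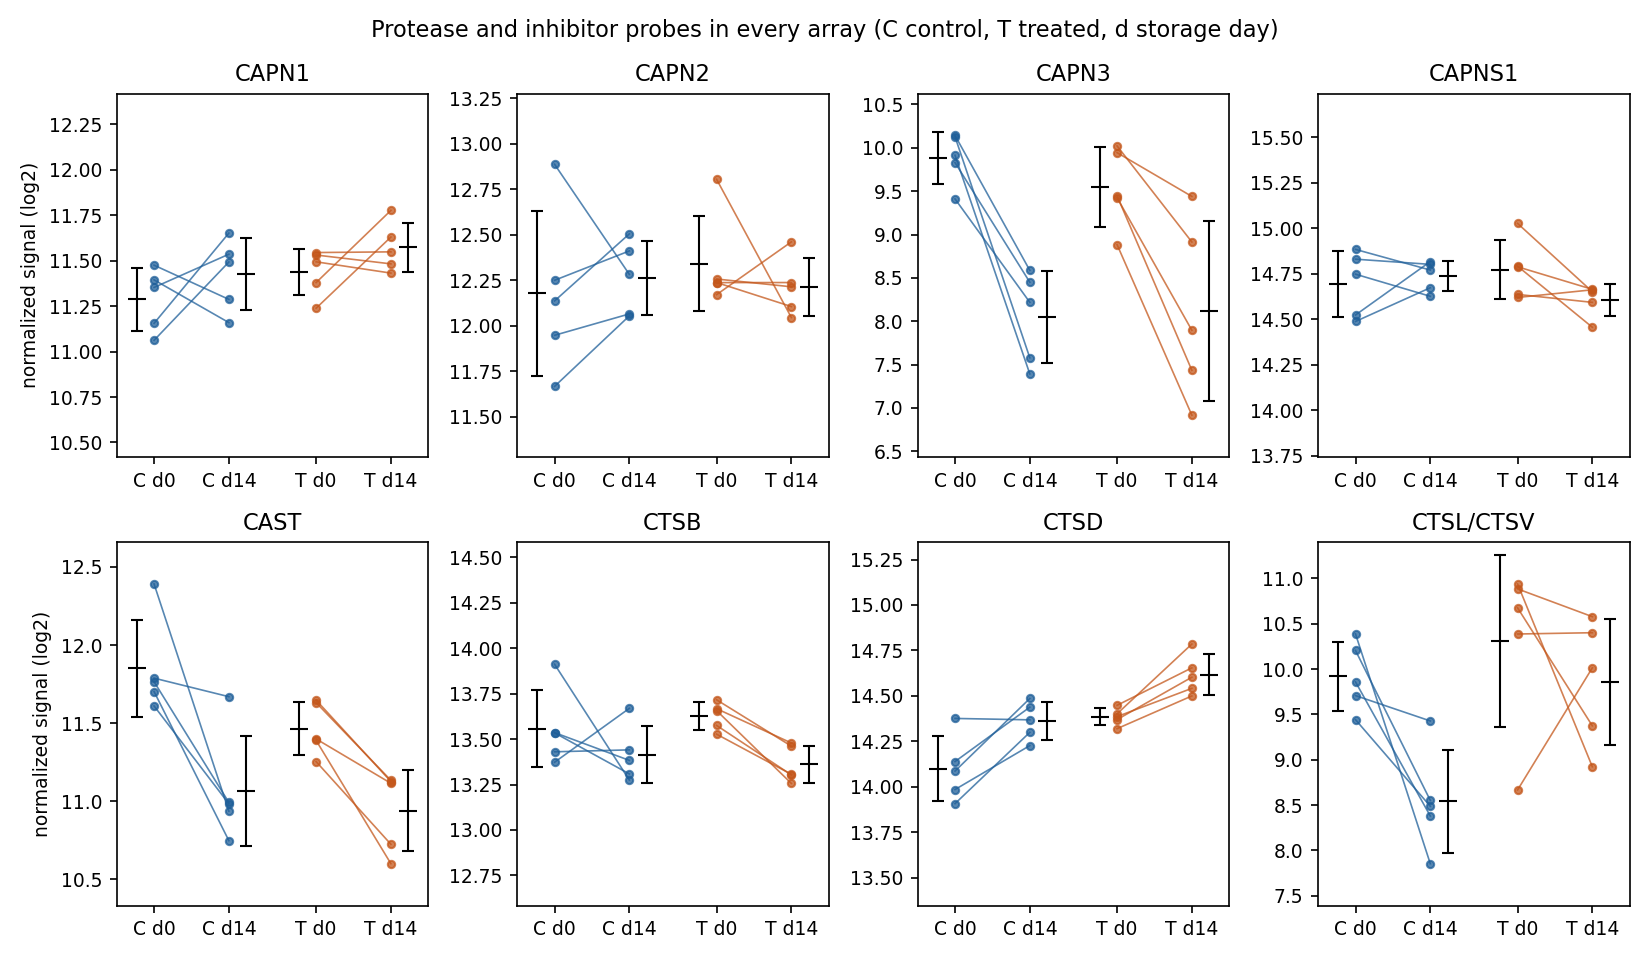
Normalized log2 signal of the 8 tested probes (vertical axes, each panel with its own range) in control (C, blue) and treated (T, orange) muscle at day 0 (d0) and day 14 (d14); each line joins the 2 arrays of 1 animal, and black marks give the mean and SD of 5 animals. CAPN3 and CAST lines point down in 10 of 10 animals and CTSD lines point up in 9 of 10, while CAPN1, CAPN2 and CAPNS1 lines run both ways.

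The RNA of the conventional calpains showed no storage change past the threshold. CAPN1, the large subunit of calpain 1, had group means between 11.29 ± 0.17 (SD, n = 5) in control muscle at day 0 and 11.57 ± 0.14 in treated muscle at day 14. Its change over all animals was 0.14 ± 0.09 (limma adjusted p = 0.217), with an interval of 2 standard errors from -0.05 to 0.32, and it was higher at day 14 in 6 of 10 animals. CAPN2, the large subunit of calpain 2, changed by -0.02 ± 0.14 (interval -0.29 to 0.25, adjusted p = 0.903). Its widest spread was at control day 0, where K8 read 12.89 and K3 11.67, the 2 spots of K3 lying 1.02 apart. CAPNS1, the shared small subunit, changed by -0.06 ± 0.09 (interval -0.24 to 0.12, adjusted p = 0.571), and its arrays ranged from 14.46 to 15.03. The sign of these 3 changes depended on the scaling. CAPN1 reached 0.23 with quantile normalization (adjusted p = 0.030) and -0.17 with median centring (adjusted p = 0.177). With median centring CAPN2 was -0.33 (adjusted p = 0.048) and CAPNS1 -0.37 (adjusted p = 0.00413). Relative to the median probe their changes were 0.04, -0.12 and -0.16.

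CAST, which encodes the inhibitor of both conventional calpains, was lower after storage in every animal. Control arrays read 11.70 in K3, 11.77 in K6, 12.39 in K8, 11.61 in K9 and 11.79 in K10 at day 0. At day 14 they read 10.75, 10.99, 10.94, 10.98 and 11.67, so that only K10 overlapped the day 0 range. Treated arrays read 11.65 in DE27, 11.39 in DE29, 11.63 in DE30, 11.40 in DE31 and 11.25 in DE32 at day 0, against 11.13, 10.60, 11.13, 11.11 and 10.72 at day 14. The 2 treated days did not overlap.

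CAST fell by 0.79 ± 0.21 on the log2 scale in control animals, or 1.72-fold (limma adjusted p = 0.0142), and by 0.52 ± 0.17, or 1.44-fold, in treated animals (adjusted p = 0.0417). The treated value did not pass with the animal as a replicate block (adjusted p = 0.057), with quantile normalization (-0.45, adjusted p = 0.0695), in the authors' normalized series table (-0.41, adjusted p = 0.0997) or with outlier spots kept (-0.48, adjusted p = 0.0692). Over all animals CAST fell by 0.66 ± 0.13, or 1.57-fold (adjusted p = 0.000362), a change of -0.76 relative to the median probe, and 14.8% of the tested probes had a lower value. Its 5 scalings gave -0.96 to -0.55. The control call was lost without K8, whose day 0 array was the highest (adjusted p = 0.0675), and without K3, whose adjusted p lay just over the threshold, and it passed in the other 3 of 5 fits that each left out 1 animal. The treated adjusted p lay between 0.0539 and 0.135 whichever treated animal was left out.

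**Figure D2:**
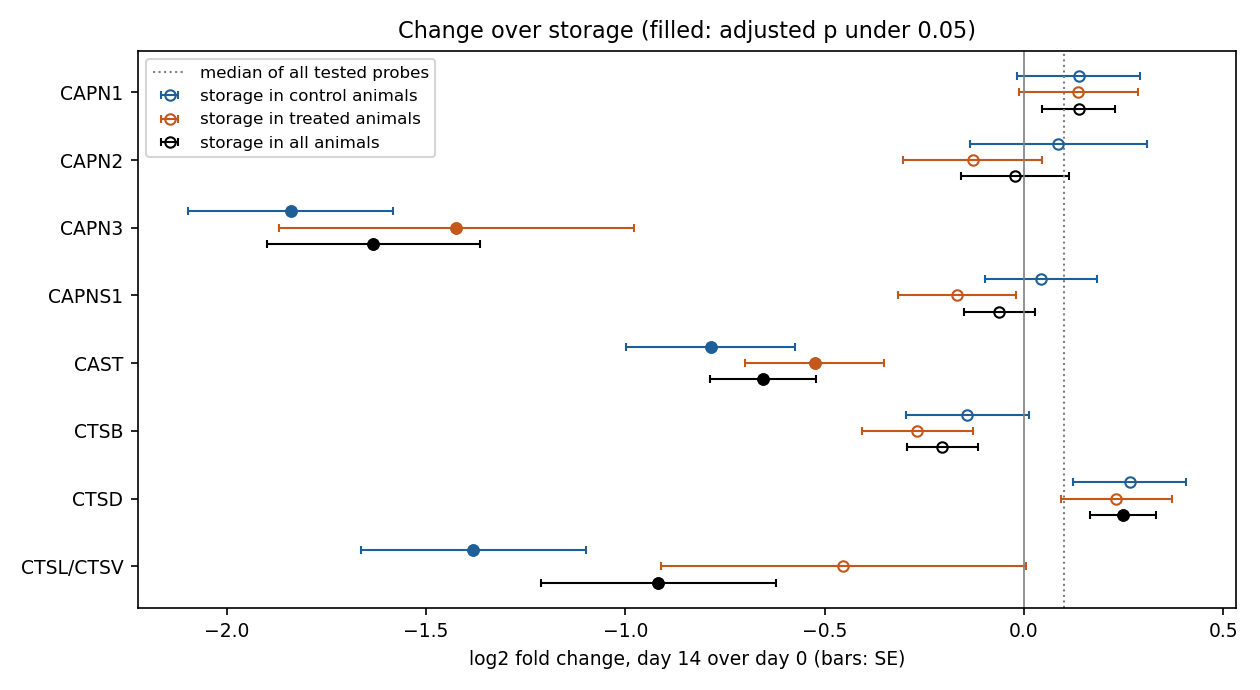
Log2 fold change of day 14 over day 0 (horizontal axis) for each probe in control animals (blue), treated animals (orange) and all animals (black), with standard error bars; filled symbols had an adjusted p under 0.05 and the dotted line is the median of all tested probes over all animals, 0.10. CAPN3 (-1.63) and CAST (-0.66) lie left of the line in each set, and CAPN1, CAPN2 and CAPNS1 lie between -0.17 and 0.14.

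Within an array, the difference between 2 probes does not depend on how the array was centred. The storage change of CAPN1 minus that of CAST was 0.79 ± 0.41 (SD, n = 10) on the log2 scale and lay above 0 in 10 of 10 animals, from 0.44 to 1.64. For CAPN2 minus CAST the mean was 0.63 ± 0.45, above 0 in 9 of 10 animals, and for CAPNS1 minus CAST it was 0.59 ± 0.48, also above 0 in 9 of 10. The inhibitor's RNA thus changed unequally to that of the subunits in most animals. CAPN1 minus CAPN3 was 1.77 ± 0.48 and above 0 in all 10 animals. Background correction and quantile normalization can still move such differences. The mean of CAPN1 minus CAPN3 was 1.26 with normexp and 1.90 with quantile normalization, and that of CAPN1 minus CAST 0.84 and 0.80. These are descriptions of unequal change and carry no test.

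**Figure D3:**
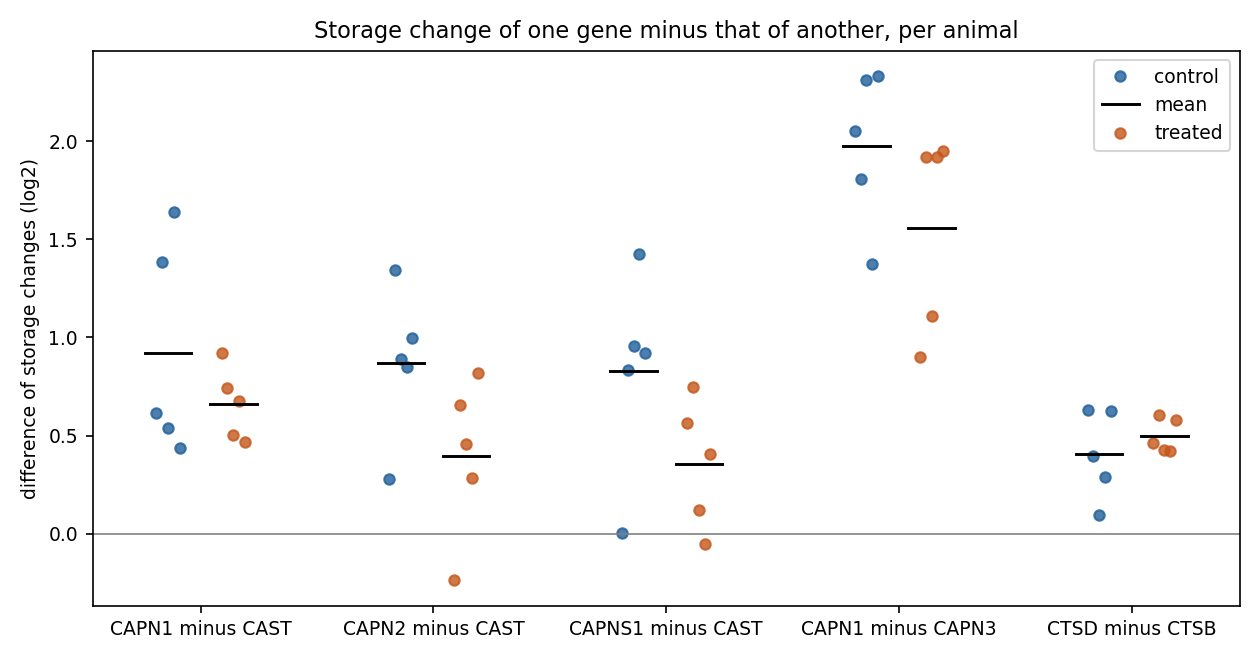
Difference between the storage changes of 2 probes (vertical axis, log2) in each control (blue) and treated (orange) animal, with the mean of each set of 5 as a black bar. All 10 points lie above 0 for CAPN1 minus CAST, CAPN1 minus CAPN3 and CTSD minus CTSB, and 9 of 10 do for CAPN2 minus CAST and CAPNS1 minus CAST.

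Among the cathepsins, CTSD RNA was slightly higher after storage. Its control arrays read 13.98 in K3, 13.91 in K6, 14.14 in K8, 14.09 in K9 and 14.38 in K10 at day 0, and 14.23, 14.30, 14.44, 14.49 and 14.37 at day 14. Its treated arrays read 14.45 in DE27, 14.40 in DE29, 14.39 in DE30, 14.37 in DE31 and 14.32 in DE32 at day 0, and 14.65, 14.79, 14.54, 14.60 and 14.50 at day 14. Treated days did not overlap, control days did, and K10 was the only animal without a rise. Over all animals the change was 0.25 ± 0.08, a 1.19-fold difference (limma adjusted p = 0.0149), which left 0.15 above the median probe. The direction rested on the scaling: with median centring the value was -0.06 (adjusted p = 0.591), and with normexp it was 0.00 (adjusted p = 0.975). In neither treatment alone did CTSD pass the threshold, with 0.26 ± 0.14 in control (adjusted p = 0.158) and 0.23 ± 0.14 in treated animals (adjusted p = 0.23).

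CTSB had group means from 13.36 ± 0.10 (SD, n = 5) in treated muscle at day 14 to 13.63 ± 0.08 in treated muscle at day 0. The treated arrays of day 0 (13.53 to 13.72) and day 14 (13.26 to 13.48) did not overlap, while the control arrays did. Its change over all animals was -0.20 ± 0.09 (limma adjusted p = 0.0582), and it was lower at day 14 in 8 of 10 animals. With median centring the value was -0.51 (adjusted p = 0.000143) and with normexp -0.57 (adjusted p = 0.000157). With quantile normalization it was -0.06 (adjusted p = 0.602), and in the authors' normalized series table -0.10 (adjusted p = 0.350). Whether CTSB passed thus rested on the scaling. CTSD minus CTSB, which does not depend on how an array was centred, was 0.45 ± 0.17 (SD, n = 10) and above 0 in 10 of 10 animals, and its mean was 0.58 with normexp and 0.46 with quantile normalization.

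The brighter of the 2 cathepsin L probes was deposited as CTSL, but the current gene table (RefSeq, assembly ARS-UCD2.0) assigns its accession to CTSV, with CTSL as an older symbol, so it is called CTSL/CTSV here. CTSV encodes cathepsin V, a close relative of cathepsin L in human. In control muscle CTSL/CTSV read 10.39 in K3, 9.86 in K6, 10.21 in K8, 9.44 in K9 and 9.71 in K10 at day 0, and 7.85, 8.38, 8.55, 8.49 and 9.43 at day 14. All control arrays of day 14 were below those of day 0, although the 2 spots of K3 at day 14 differed by 1.65. In treated muscle it read 8.67 in DE27, 10.89 in DE29, 10.39 in DE30, 10.94 in DE31 and 10.68 in DE32 at day 0, and 10.01, 10.58, 10.40, 8.92 and 9.37 at day 14. The treated days overlapped, and DE27 alone was far below the other treated arrays of day 0.

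CTSL/CTSV fell by 1.38 ± 0.28 on the log2 scale in control animals, or 2.61-fold (limma adjusted p = 0.00408), with a fall in 5 of 5. In treated animals its change was -0.45 ± 0.46 (adjusted p = 0.483), with a lower value in 3 of 5, and without DE27 it was -0.90 (adjusted p = 0.0772). Over all animals it fell by 0.92 ± 0.30, or 1.89-fold (adjusted p = 0.0127). The other probe, which the current table names CTSL, was well above background on 4 arrays only, 3 of control day 0 and 1 of treated day 0, and was not tested. Its control mean was 3.73 ± 0.17 (SD, n = 5) at day 0, and it was not well above background on any array of day 14, so no fold change is given. The RNA of the gene now called CTSL was thus measured on few arrays.

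Counted together, 3 of the 8 tested probes (CAPN3, CAST and CTSL/CTSV) were lower after storage in control animals and none higher, where 39.1% of all tested probes passed (21.7% higher and 17.4% lower). In treated animals 2 of 8 passed (CAPN3 and CAST, both lower), against 29.6% of all probes (17.8% higher and 11.8% lower). Over all animals 3 of 8 were lower and 1 (CTSD) higher, against 54.6% (31.3% higher and 23.3% lower). The share of the 8 probes called in either direction was thus near that of the array as a whole in each of the 3 comparisons. Their median change over all animals was -0.13, where the median of all tested probes was 0.10. Control days did not overlap for 2 of the 8 probes (CAPN3 and CTSL/CTSV, against 25.0% of all probes), and treated days for 3 (CAST, CTSB and CTSD, against 20.4%). Calls over the whole array were 4820 higher and 3593 lower over all animals, but 2726 higher and 5918 lower with median centring, 8213 and 2623 with normexp, and 3837 and 4090 with quantile normalization.

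**Figure D4:**
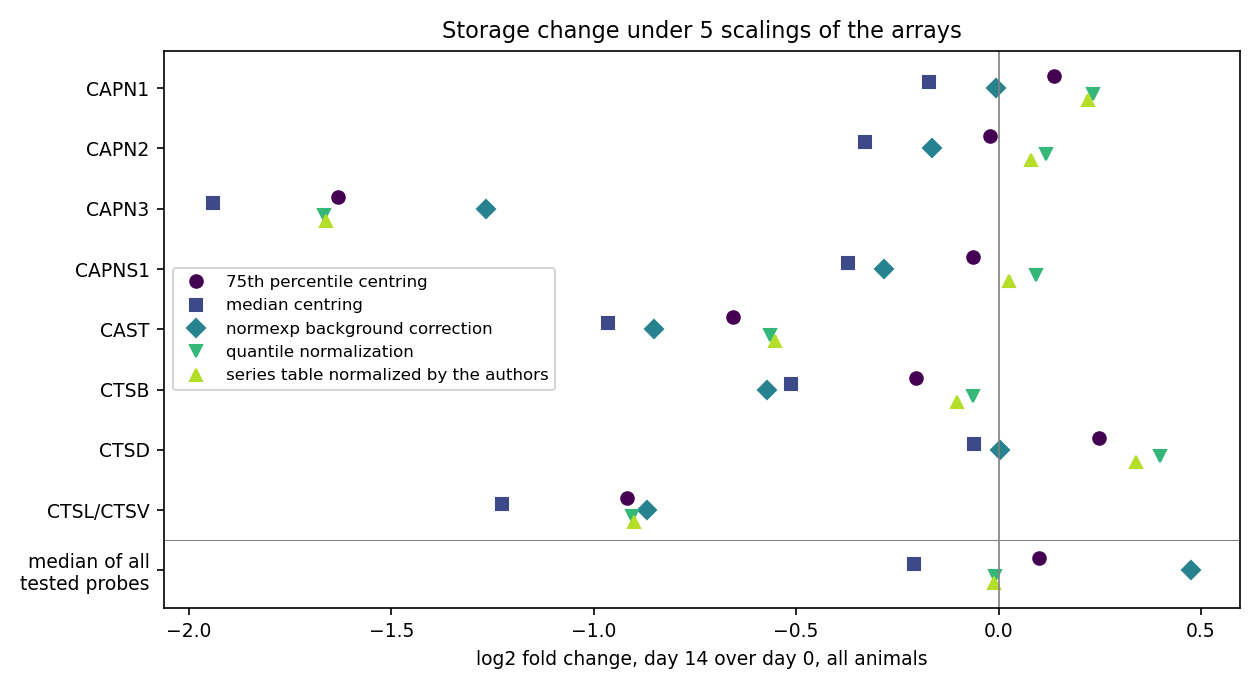
Log2 fold change of day 14 over day 0 over all animals (horizontal axis) for each probe under 5 ways of scaling the arrays (symbols), with the median of all tested probes at the bottom. CAPN3 runs from -1.94 to -1.27, CAST from -0.96 to -0.55 and CTSL/CTSV from -1.23 to -0.87, all left of 0, whereas CTSD runs from -0.06 to 0.40 and CAPN1 from -0.17 to 0.23.

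The arrays lay on 6 slides, scanned in 3 sessions according to the file headers. Slides 1 and 3 held only day 0 and slides 2 and 4 only day 14, so storage can be compared within slides 5 and 6 alone. With both treatments pooled, CAPN3 differed between the days by -1.44 on slide 5 and -1.71 on slide 6, and CAST by -0.06 and -0.88. CTSL/CTSV differed by -1.28 and -0.99, and CTSD by 0.11 and -0.08. Within treated animals on slide 5 (DE32 alone) CAPN3 differed by -2.01, CAST by -0.53, CTSL/CTSV by -1.30 and CTSD by 0.18. Within control animals on slide 6 the same probes differed by -1.81, -0.95, -1.51 and -0.04. Within scan sessions 1, 2 and 3, again with both treatments pooled, the CAPN3 difference was -1.64, -1.60 and -1.71. The CAST difference was -0.71, -0.53 and -0.88. With slide as a block none of the 8 probes passed: over all animals CAPN3 was -1.63 (adjusted p = 0.0533), CAST -0.70 (0.0793), CTSL/CTSV -0.74 (0.300) and CTSD 0.12 (0.622). In treated animals, scan session as a block gave an adjusted p of 0.0771 for CAPN3, 0.0933 for CAST and 0.0444 for CTSL/CTSV.

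Markers of other cell types were measured in the same arrays. For scale, 31.3% of all tested probes were called higher and 23.3% lower over storage in all animals. In bulk tissue, fewer cells of a type and less RNA per cell cannot be told apart. Of 8 endothelial markers 7 were called higher over storage in the fit over all animals and none lower. Their summed signal was 0.73 higher on average within animals, though lower in 2 of 10 (exact permutation p = 0.00781, adjusted p = 0.0586). With median centring PECAM1, TEK and EMCN did not pass (limma adjusted p = 0.0569, 0.317 and 0.683). Of 5 measured lymphocyte markers 3 were called higher, with a summed signal 0.80 higher (exact permutation adjusted p = 0.0391). With median centring CD3E, CD2 and CD79A did not pass (limma adjusted p = 0.156, 0.297 and 0.0837). CD3D and MS4A1 of that list were not above background. Of 9 fibroblast markers 4 were called lower, and the sum changed by -0.91 (exact permutation adjusted p = 0.202). With normexp FBN1 did not pass (-0.12, limma adjusted p = 0.671). Macrophages are rich in lysosomal cathepsins. Of 13 measured macrophage markers 1 (CD74) was called higher and 1 (MRC1) lower, and their sum changed by -0.05 (exact permutation adjusted p = 0.952). Over all arrays that sum ranged from 12.49 to 14.23. The median change of the 13 was -0.17, and 6 of them lay above 0. With median centring CD74 was 0.18 (limma adjusted p = 0.357). MRC1 changed by -1.47 (limma adjusted p = 0.00036), and by -1.78 with median centring and -1.04 with normexp. Of 10 measured muscle fibre markers 4 were called higher and 2 lower, and their sum was 0.39 higher at day 14 (exact permutation p = 0.0254, adjusted p = 0.0846). With median centring ACTA1, MYH7 and MB did not pass (limma adjusted p = 0.102, 0.0556 and 0.175). Of 5 measured adipocyte markers 2 were called lower (ADIPOQ and CIDEC) and none higher. The sum of the 5 changed by -0.56 (exact permutation p = 0.0156, adjusted p = 0.0794). With normexp the ADIPOQ value was 0.89 (limma adjusted p = 0.0108) and the CIDEC value -0.23 (limma adjusted p = 0.645). The part of these markers in the storage changes of the proteases was not tested.

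None of the 8 probes differed past the threshold between cows given dexamethasone with estradiol and control cows. At day 0, 2.45% of all tested probes passed (1.32% higher and 1.13% lower), and 2 of the 8 reached an unadjusted p under 0.05. CAST was lower by a log2 value of -0.39 ± 0.17 in treated muscle (limma adjusted p = 0.271), and CTSD was higher by 0.29 ± 0.12 (adjusted p = 0.267). Control and treated arrays of day 0 overlapped for each of the 8 probes, where 5.88% of all probes did not overlap. The treated CTSD arrays of day 0, 14.32 to 14.45, lay at the top of the control range of 13.91 to 14.38.

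CAPN3 differed by -0.34 ± 0.23 at day 0 (adjusted p = 0.507), with an interval of 2 standard errors from -0.81 to 0.13. On slide 1 the CAPN3 difference was -1.10, and on slides 3 and 6 it was 0.06 and -0.20. CTSL/CTSV differed by 0.39 ± 0.40 (adjusted p = 0.684), and by 0.80 without DE27 (adjusted p = 0.093). The other 4 probes had differences between 0.07 for CTSB and 0.16 for CAPN2, and their intervals reached from -0.29 to 0.61, the widest being that of CAPN2. Such intervals leave room for differences in either direction and do not show that the groups are alike.

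At day 14, 0.0713% of all tested probes passed (0.0259% higher and 0.0454% lower) and again none of the 8. CTSL/CTSV was higher by 1.32 ± 0.36 in treated muscle, a 2.49-fold difference (unadjusted p = 0.00364, limma adjusted p = 0.264). The groups overlapped through 1 control array, since K10 at 9.43 was higher than DE31 at 8.92 and DE32 at 9.37. It was 1.92 higher within slide 2, 1.18 within slide 4 and -0.05 within slide 5. CTSD was the 1 probe of the 8 whose control (14.23 to 14.49) and treated (14.50 to 14.79) arrays did not overlap, against 2.30% of all probes, and its difference was 0.25 ± 0.15 (adjusted p = 0.584). CAST differed by -0.13 ± 0.21, CAPNS1 by -0.13 ± 0.14, CAPN1 by 0.15 ± 0.16 and CAPN3 by 0.07 ± 0.46. CTSB and CAPN2 both differed by -0.05, with standard errors of 0.15 and 0.17.

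With the 2 days of each animal averaged, 3.38% of all tested probes passed (1.41% higher and 1.97% lower) and none of the 8. CTSL/CTSV was 0.85 ± 0.23 higher in treated animals, or 1.81-fold (adjusted p = 0.0716), and 98.2% of the tested probes had a lower value. Without DE27 it was 1.04 higher (adjusted p = 0.0276). CTSD was 0.27 ± 0.11 higher (adjusted p = 0.19), CAPN1 0.15 ± 0.10 higher (adjusted p = 0.446) and CAST 0.26 ± 0.14 lower on the log2 scale (adjusted p = 0.364). The other 4 probes lay between -0.13 and 0.06. At day 0 the summed fibre markers differed by -0.29 between treated and control muscle (exact permutation p = 0.0397, adjusted p = 0.119) and the summed endothelial markers by 0.28 (exact permutation p = 0.0238, adjusted p = 0.0846). At day 14 the summed fibre markers were 0.46 higher in treated muscle (exact permutation p = 0.0159, adjusted p = 0.0794), and the summed macrophage markers were -0.26 different (adjusted p = 0.878). The part of these markers in the treatment values of the proteases was not tested.

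**Figure D5:**
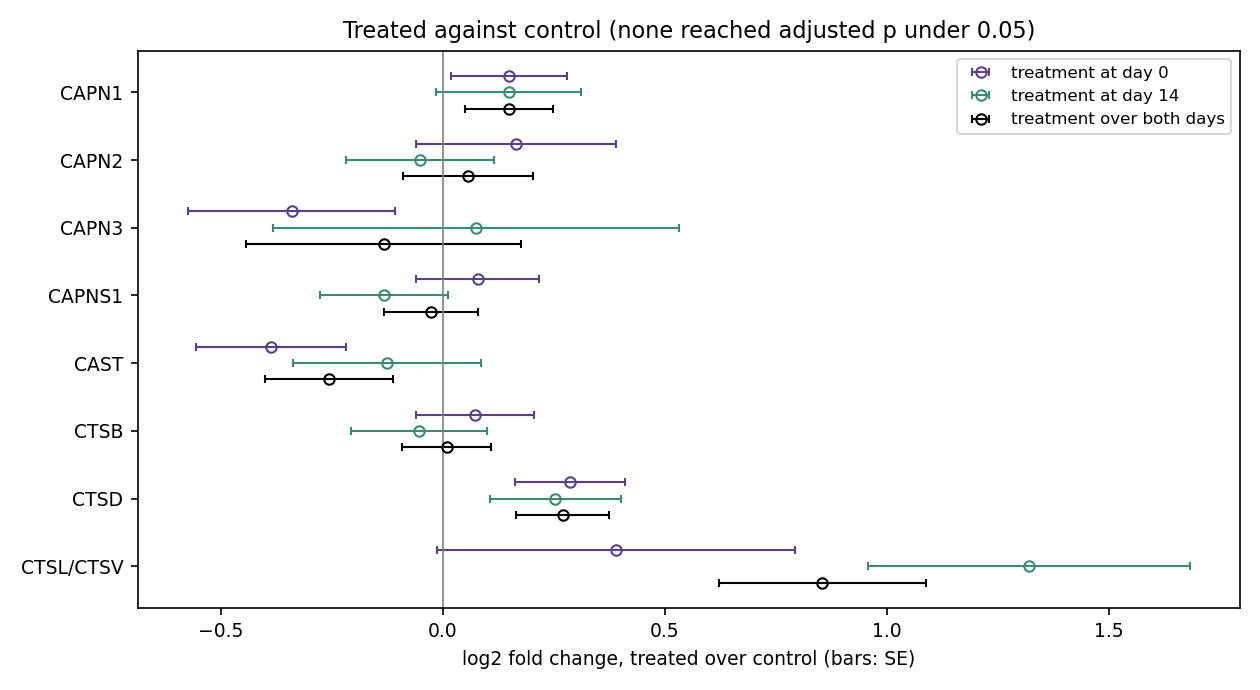
Log2 fold change of treated over control muscle (horizontal axis) at day 0 (purple), at day 14 (green) and with both days averaged per animal (black), with standard error bars. No probe had an adjusted p under 0.05; CTSL/CTSV at day 14 (1.32) lies farthest from 0, and CTSD is above 0 in each comparison (0.29, 0.25 and 0.27).

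Whether storage acted differently in treated muscle was asked of the interaction term. It passed for 0 of the 15421 probes fitted, 534 of which had an unadjusted p under 0.05, so 0% of the array and 0 of the 8 probes were called. The estimate for CTSL/CTSV was 0.93 ± 0.57 (unadjusted p = 0.118), for CAPN3 0.42 ± 0.54 and for CAST 0.26 ± 0.27. The other 5 lay between -0.21 and 0.00. A fall past the threshold in control but not in treated animals, as for CTSL/CTSV, was therefore not shown to differ between them.

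For the related genes that follow, the share of all tested probes called over storage in all animals was 31.3% higher and 23.3% lower. Of 12 other calpain genes 6 were measured: CAPN12 rose 1.87-fold (0.91 ± 0.26, limma adjusted p = 0.00649), CAPN7, a calpain without the usual calcium-binding domain, fell 1.44-fold (-0.52 ± 0.11, adjusted p = 0.000643), and 4 did not pass. Of 10 measured cathepsins and partners none rose and 2 fell over all animals, against 31.3% and 23.3% of all probes. These were LGMN, the lysosomal asparaginyl protease legumain that cleaves cathepsin precursors (-0.73 ± 0.16, adjusted p = 0.000682), and PSAP, the precursor of the saposins (-0.56 ± 0.11, adjusted p = 0.000247). CTSA, CTSC, CTSF, CTSH, CTSK, CTSS, CTSW and CTSZ did not pass. The median change of the 10 was -0.10. LGMN was also the gene of this list that passed for treatment: it was 1.05 ± 0.16 higher in treated muscle at day 0, or 2.07-fold (adjusted p = 0.0111), and 0.85 ± 0.16 higher with both days averaged (adjusted p = 0.0181).

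Of 5 measured inhibitors of cathepsins and related proteases, 2 were called lower and 2 higher over storage, against 23.3% and 31.3% of all probes. CST3, the secreted inhibitor cystatin C, fell 1.68-fold (-0.75 ± 0.12, limma adjusted p = 4.2e-05) and SERPINB6, a cytosolic serpin, fell 1.96-fold (-0.97 ± 0.16, adjusted p = 3.79e-05). CST7, the cystatin of immune cells, rose 1.91-fold (0.94 ± 0.22, adjusted p = 0.00126). SPINT2, an inhibitor of serine proteases, had a value of 0.42 ± 0.17 (adjusted p = 0.0442), within the size that has no settled direction, and of 0.11 with median centring (adjusted p = 0.557). None passed for treatment at either day.

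Of 12 measured genes of caspases and their partners, the other proteases discussed for aging meat, 3 were called higher and 4 lower over storage, against 31.3% and 23.3% of all probes. CASP8, an initiator caspase, rose 2.91-fold (1.54 ± 0.30, adjusted p = 0.000263), and the caspase activator APAF1 rose by 0.59 ± 0.15 on the log2 scale, but not past the threshold with quantile normalization (0.25, adjusted p = 0.186) or median centring (0.28, adjusted p = 0.131). Cytochrome c, encoded by CYCS, fell 2.18-fold (-1.12 ± 0.22, adjusted p = 0.000237), and DIABLO, whose protein counters caspase inhibitors, also fell. The caspase inhibitor XIAP (-0.81 ± 0.17) and BCL2 (-0.57 ± 0.22), an inhibitor of cell death, were called lower, but with normexp their values were 0.37 (adjusted p = 0.121) and 0.42 (adjusted p = 0.0803). No gene of the list passed for treatment.

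Of 17 measured genes of the sarcomere and membrane listed as calpain substrates, 4 were called higher and 4 lower over storage, against 31.3% and 23.3% of all probes. TTN, the gene of titin, rose 7.94-fold (2.99 ± 0.28, limma adjusted p = 6.97e-08), in the direction opposite to CAPN3. SPTAN1, the spectrin alpha chain, rose 2.04-fold (1.03 ± 0.16), and FLNC and TLN1 rose 1.62-fold and 1.44-fold, the TLN1 value being 0.22 with median centring (adjusted p = 0.193). LMOD2, whose protein lengthens thin filaments, fell 3.80-fold (-1.93 ± 0.30, adjusted p = 2.21e-05). The intermediate filament gene DES fell 1.76-fold (-0.82 ± 0.20), and DMD fell 1.61-fold. SYNM had a value of -0.45 ± 0.17 (adjusted p = 0.0324), within the size that has no settled direction, and of -0.32 with quantile normalization (adjusted p = 0.0654). The median of the 17 was -0.25, and none passed for treatment.

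Of 26 measured lysosome genes outside the proteases, 7 were called lower and 3 higher over storage, where 23.3% of all probes were lower and 31.3% higher. Of the 7, TFEB, a transcription factor of lysosome genes, had a value of 0.37 with normexp in place of -1.01, and it is named here after its values were seen. The membrane protein LAMP2 fell 2.04-fold (-1.03 ± 0.15, limma adjusted p = 9.96e-06), and LIPA, the acid lipase, rose 1.59-fold (0.67 ± 0.10). The median of the 26 was -0.14. GLB1, the lysosomal beta-galactosidase, was the 1 gene of the list that passed for treatment, 0.89 ± 0.14 higher with both days averaged (adjusted p = 0.00906).

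The named genes closest to each changed probe were found by the root mean square difference of mean-centred log2 values over the 20 arrays. For CAPN3, whose values had an SD of 1.01 over the arrays, they were SCRN3 (0.335), PCBD2 (0.359) and CDNF (0.366). For CAST (SD 0.44) they were EIF3A (0.200), RANBP6 (0.204) and ARL6IP5 (0.205). CTSD (SD 0.21) was closest to SRPK1, ITPKC and MBD6, at 0.143 to 0.148. For CTSL/CTSV (SD 0.90) the nearest were MRPS31, COX16 and DPP3, at 0.451 to 0.464.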

How the data were processed

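Each array was a 1-colour Agilent bovine oligonucleotide array of total RNA. The deposited intensity values are processed signals, detrended and background-subtracted by Feature Extraction 9.5.1.1, per the file headers. The series table holds the authors' values on a linear intensity scale, monotone with the processed signal (Spearman at least 0.999). R 2.11.1 is named in the submitters' processing notes, and how that table was normalized between arrays is not given in the sources used here. Control spots (1417) and outlier spots (935 over 20 arrays) were left out, log2 signals were centred on each array's 75th percentile, and the 2 spots of a probe were averaged. Probes below 5 arrays above background were not tested (6044). limma 3.58.1 in R 4.3.3 was run on log2 values of the deposited arrays and tested on simulated data.

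Arrays were grouped by the treatment and day in their titles and characteristics. The animal name in the titles pairs the days. Deviations of the 2 arrays of an animal from their group means correlated between -0.15 and 0.28 over probes, and the paired fit is an alternative. The p-values of the main treatment comparisons measure the spread between 5 animals a group. In the main storage and interaction fits the 2 arrays of an animal entered as if independent. Those p-values measure the spread between arrays and not between animals. A description field that contradicts the day was not used. Gene names came from accessions and gene numbers in the RefSeq gene table; 4764 probes stayed unnamed there. Members and lists were chosen with earlier results of these data known. All probes of the 8 genes are named, and of each list at most 4 genes a direction by smallest p, some of which are not reported here. Alternatives were 11 choices of background, scaling, filter, block and left-out animal.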

Additional observations from a re-analysis of the deposited data

Results flagged for a closer look

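Of 32 sets of 5 arrays (8 probes in 4 groups), 4 held an array far from the other arrays of its group by Dixon's criterion, which chance alone gives in about 1 in 20 sets. CAPN2 in treated muscle at day 0 was high in DE27, at 12.80, where the other 4 arrays lay between 12.17 and 12.26. CAST was high in K8 of the control arrays of day 0, at 12.39, and in K10 of the control arrays of day 14, at 11.67. CTSL/CTSV in treated muscle at day 0 was low in DE27, at 8.67, where the other 4 arrays lay between 10.39 and 10.94. The 2 DE27 values come from the same array.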

How the results depend on the processing

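Of 155 values of called probes under the alternatives, 1 changed sign and 27 lost the threshold, and of 885 values of uncalled probes 61 changed sign, 0 of them past the threshold, while 16 newly passed. With slide as a block the number of the 8 probes past the threshold was 0 for storage in control, treated and all animals. For storage in treated animals, where 2 passed, 1 did with quantile normalization, the authors' table, outlier spots kept, scan session as a block or the animal as a replicate block, and 4 did with median centring. Leaving out 1 animal gave 0 to 1 for treated storage and 0 to 1 for treatment over both days. The paired fit changed no other call of the 8 probes. Signs turned for storage over all animals with median centring (CTSD -0.060, CAPN1 -0.17), normexp (CAPN1 -0.0072), quantile normalization (CAPN2 0.12, CAPNS1 0.094) and the authors' table (CAPN2 0.081, CAPNS1 0.026), and CAPN2 ran from -0.067 to 0.061 when animals were left out. For treatment at day 14 normexp turned CAPN2 (0.0049), CAPN3 (-0.019) and CTSB (0.19), and leaving out animals gave -0.26 to 0.38 for CAPN3, -0.089 to 0.0092 for CTSB, -0.11 to 0.0095 for CAPN2 and -0.21 to 0.025 for CAST. The cause was not tested.

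Calls over all probes also moved. For treatment at day 0 (378 calls) they were 230 with no filter and 203 with the replicate block. At day 14 (11 calls) there were 1 with normexp, 7 with the strict filter, 0 with slide, 3 with scan session and 108 with the replicate block. Over both days (521 calls) there were 137 with normexp, 346 with no filter, 983 with scan session and 880 with the replicate block. For storage they fell to 197 (control), 0 (treated) and 2274 (all) with slide, where 6038, 4561 and 8413 were called, and rose without a filter to 8732 (treated) and 13292 (all) and with normexp to 8824 (treated). Leaving out 1 animal gave 135 to 312 calls for treatment at day 0, 0 to 12 at day 14, 220 to 531 over both days, and 3236 to 6660, 2428 to 5703 and 7421 to 9056 for storage in control, treated and all animals.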
